A study of Homo sapiens with 8 samples.

Results

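The cytosolic ribosomal protein genes were examined in OAW42-R cells after UCA1 inhibition. Members were chosen by name and not by any measured value: every non-control probe whose RefSeq accession belongs to a gene called RPL or RPS with a number and an optional final A, X or Y, or to RPLP0, RPLP1, RPLP2 or RPSA, with pseudogenes left out. The array carried 151 probes for 75 of the 77 RefSeq genes that follow this rule, out of 58201 non-control probes in all. No probe matched RPL10 or RPSA by accession. Only probes detected well over background on each of the 4 arrays of sictrl, of siUCA1 or of both were used, which left 147 probes and 74 genes, among 15459 genes tested. RPL27A was not tested because its single probe was not well above background on all arrays of either condition.

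OAW42-R is a cisplatin-resistant line selected from the serous ovarian cancer line OAW42 by repeated exposure to cisplatin, so that both conditions come from 1 derived line. Cells were transfected with the Lincode Non-targeting Pool (sictrl) or with the Lincode siRNAs number 2 and 4 against the long noncoding RNA UCA1 (siUCA1), in both cases at 20 nM with InterferIn and in the same insulin-supplemented medium. The labels place RNA extraction 24 h after transfection, whereas the study's text gives a longer interval. RNA from 4 independent experiments per condition, named A1, M2, A2 and A3, was hybridised to 8 one-color arrays, and p-values measure the spread between these experiments. The comparison asks which transcripts change when UCA1 is lost, here for the protein components of the ribosome.

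Ribosomal proteins assemble with ribosomal RNA in the nucleolus into a small (40S) and a large (60S) subunit, which join on mRNA to translate it. Their mRNAs are among the most abundant of growing cells, and most start with a C followed by a run of pyrimidines, a terminal oligopyrimidine tract through which mTOR signalling and LARP1 control their translation as a group. Some ribosomal proteins have a further role outside the ribosome: RPL5 and RPL11, bound to 5S ribosomal RNA, can hold the p53 ligase MDM2.

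Levels below are log2 of the processed signal of a probe minus the 75th percentile of its array, and each gene is represented by its brightest kept probe. They can be compared between arrays for 1 probe, but not between probes as amounts of RNA. UCA1 lay at 8.22 ± 0.48 in sictrl and at 3.18 ± 0.47 in siUCA1 (SD, n = 4 each), 97.0% lower (limma, adjusted p = 0.000113). PAX8, EPCAM, KRT7, KRT8 and KRT18 were detected on all 8 arrays, as in an ovarian epithelial line, while WT1 and MUC16 were on none. Of the markers of other cells, CD3E (T cells) was on no array, PECAM1 (endothelium) on 2, PTPRC (leukocytes) on 3 and COL1A1 (fibroblasts) on 5, all of them dim. On 2 arrays, sictrl A3 and siUCA1 A1, the brightness trend over the surface that the scanner software fitted and removed was larger (root mean square 0.321 and 0.287, against 0.0737 to 0.0943 on the other 6), so the values below that moved most without them are also given without them.

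The starts of the members show what the family shares apart from its names. The windows below run from 10 bases before to 19 bases after the annotated transcription start in RefSeq (GRCh38.p14), and the capitals mark the C at the start with the unbroken pyrimidines after it. They show the single member that passed the test (RPL22), the 3 stalk genes, members with known roles or with large deviations on single arrays, and RPS4X as a member without such a tract.

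RPL22, chr1:6199576-6199605, minus strand: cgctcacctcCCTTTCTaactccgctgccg
RPL36, chr19:5690285-5690314, plus strand: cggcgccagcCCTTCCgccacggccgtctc
RPL41, chr12:56116623-56116652, plus strand: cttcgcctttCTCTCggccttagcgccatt
RPLP0, chr12:120201092-120201121, minus strand: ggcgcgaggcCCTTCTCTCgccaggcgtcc
RPLP1, chr15:69452808-69452837, plus strand: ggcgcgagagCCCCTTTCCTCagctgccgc
RPLP2, chr11:809957-809986, plus strand: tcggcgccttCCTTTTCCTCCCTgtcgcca
RPS6, chr9:19380217-19380246, minus strand: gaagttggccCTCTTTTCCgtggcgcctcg
RPS12, chr6:132814559-132814588, plus strand: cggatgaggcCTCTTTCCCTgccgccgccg
RPS19, chr19:41860245-41860274, plus strand: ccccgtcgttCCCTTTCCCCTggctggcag
RPS27A, chr2:55232678-55232707, plus strand: ggcgttcttcCTTTTCgatccgccatctgc
RPS4X, chrX:72277229-72277258, minus strand: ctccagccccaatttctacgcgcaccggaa

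The tract searched was a C followed by at least 4 pyrimidines on the transcribed strand. Of the 75 genes on the array, 60 had an entry in the table of starts. In 44 of these (73.3%) the tract began at the exact annotated start of at least 1 transcript, against 988 of 15843 protein-coding genes (6.24%). When the tract could begin anywhere within 10 bases on either side, the shares were 91.7% and 41.1%. The tract was 7 bases long in RPL22 and 13 in RPLP2. A match describes these letters only. The 43 tested members with it had a median log2 fold change of 0.18 (from -0.35 to 0.62), and the 16 without it one of 0.17 (from -0.07 to 0.33), and the difference between them was not tested.

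Of the 74 members tested, 1 differed between siUCA1 and sictrl in the fit over all genes (limma, adjusted p under 0.05). RPL22 was higher in siUCA1, and 0 members were lower. The same test called 11.4% of all 15459 genes, 5.62% as higher and 5.8% as lower. At an unadjusted p under 0.05 (limma) 11 of the 74 members were higher and 0 lower. Of all 15459 genes, 2223 were higher and 2026 lower at that p, 27.5% in either direction.

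RPL22 encodes a protein of the 60S subunit that binds RNA and has a close paralog, RPL22L1, able to take its place in the ribosome. Its level on the sictrl arrays A1, M2, A2 and A3 was 6.86, 6.88, 6.94 and 7.00. On the siUCA1 arrays of the same names it was 7.51, 7.44, 7.60 and 7.61. Every siUCA1 array lay above every sictrl array, and the gap between the conditions was larger than the range within either. The log2 fold change was 0.62 ± 0.088 (SE), or 1.54-fold, with a 95% interval of 0.42 to 0.82 and an adjusted p of 0.00482 by limma. The two-sided exact permutation test gave p = 0.0286, the smallest that 4 arrays against 4 can give. RPL22 lost its call with median scaling (adjusted p = 0.196), without the filter on dim probes (0.163), with normexp background correction (0.449) and with removal of the remaining surface trend (0.147), all by limma and all with the same sign.

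The RPL22 difference was also seen by a second, much dimmer probe of the gene. It lay at 1.83, 1.79, 1.68 and 2.15 on the sictrl arrays and at 2.67, 2.52, 2.41 and 2.56 on the siUCA1 arrays, with no overlap. Its log2 fold change was 0.68 ± 0.12 (SE, limma over all kept probes, adjusted p = 0.0115). RPL22L1 lay at 7.30 ± 0.261 in sictrl and at 6.96 ± 0.398 in siUCA1 (SD, n = 4 each). Its log2 fold change was -0.34 with an adjusted p of 0.344, and its arrays overlapped between conditions.

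**Figure D1:**
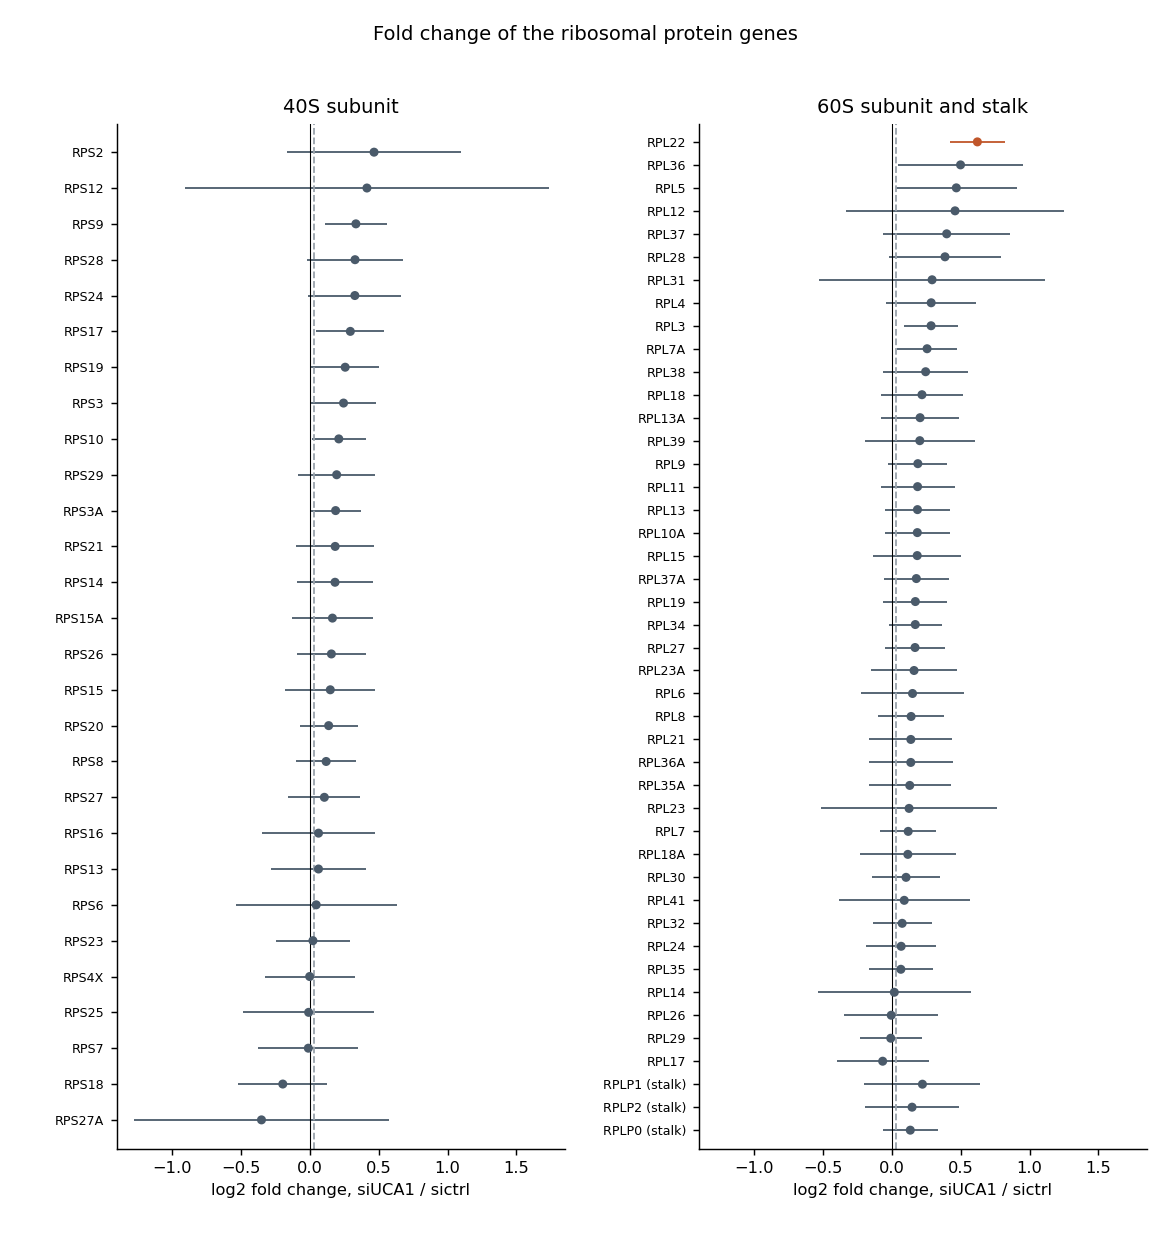
Log2 fold change (siUCA1 over sictrl) of 72 of the 74 tested ribosomal protein genes by subunit, with 95% intervals from limma (4 arrays per condition), sorted by value within the 40S, the 60S and the stalk. RPL22, in orange, is the single member past the adjusted threshold, and the dashed line marks the median of all genes tested, 0.03. Of the points, 64 lie above 0 with this scaling, and of all 74 members 66 do so here and 45 after quantile normalization.

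With the 75th percentile most members lay slightly higher in siUCA1, and with quantile normalization their median log2 fold change exceeded that of all genes by only 0.00542. The log2 fold change was above 0 for 66 of 74 members with the 75th percentile, for 57 with median scaling and for 45 with quantile normalization, while 53.9% of all genes tested were above 0 with the 75th percentile. The median over the members was 0.17, against 0.03 over all genes tested. With quantile normalization these medians were 0.03 and 0.02, and with median scaling 0.08 and -0.07. The interquartile range of the members ran from 0.11 to 0.25.

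The difference was also seen, though smaller, in other genes at least as bright as the dimmest member. These 600 genes, not matched to the members in level, had a median log2 fold change of 0.11. Of them 69.5% lay above 0 (89.2% of the members), and 21 were called higher and 6 lower. The difference from the members was not tested. The 14785 dimmer genes had a median of 0.02. The median level of the members was 9.80, 10.02, 9.99 and 9.90 on the sictrl arrays A1, M2, A2 and A3, and 9.98, 10.09, 10.25 and 10.07 on the siUCA1 arrays. The values of the conditions overlapped, since siUCA1 A1 lay below sictrl M2 and A2. Between arrays of the same name, the siUCA1 array was higher for 4 of 4 names, by 0.179 for A1, 0.0730 for M2, 0.257 for A2 and 0.171 for A3. The members held 16.3 ± 0.668% of the summed signal in sictrl and 17.0 ± 0.610% in siUCA1 (SD, n = 4 each). In RNA from whole cultures, more cells with a high level of these RNAs and more of them per cell cannot be told apart.

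**Figure D2:**
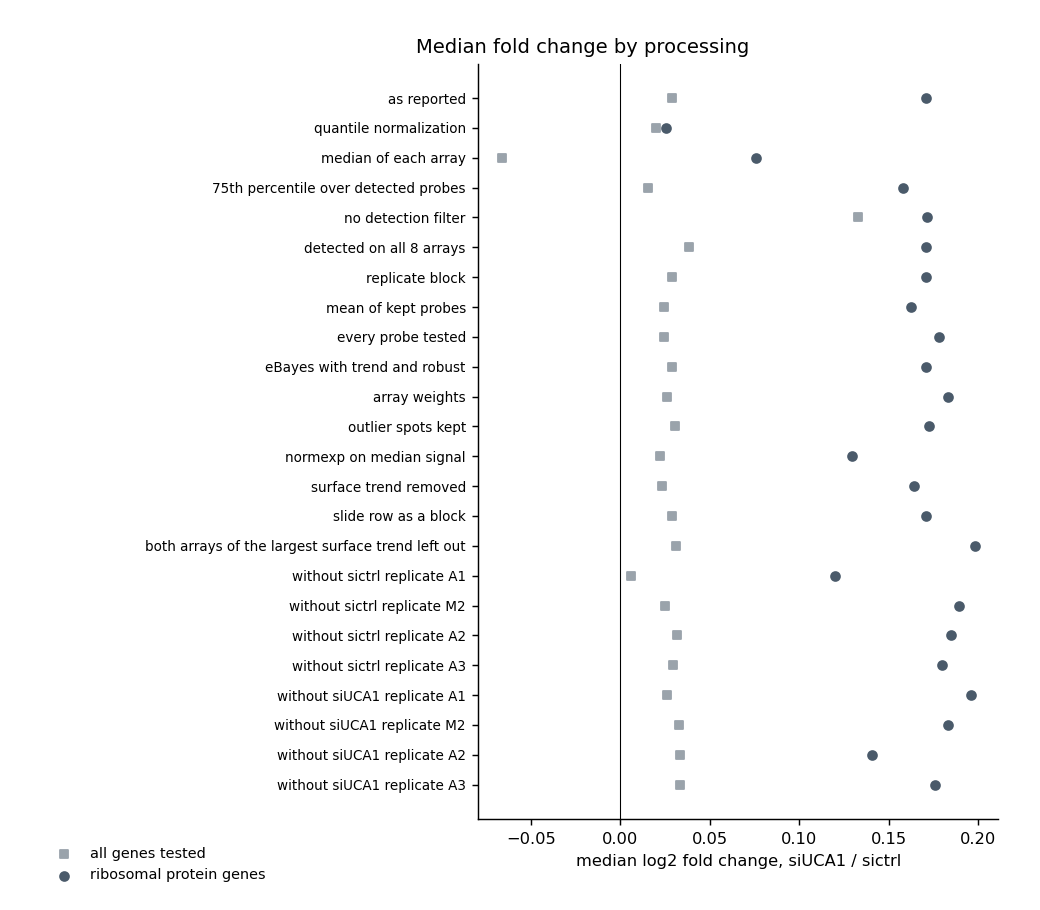
Median log2 fold change (siUCA1 over sictrl) of the ribosomal protein genes (circles) and of all genes tested (squares) under the processing reported here and each alternative. The circles run from 0.03 with quantile normalization to 0.20 without both arrays of the largest surface trend, and the squares from -0.07 to 0.13.

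Of 30 members of the 40S subunit, 25 had a log2 fold change above 0 with a median of 0.17, and of 41 members of the 60S subunit outside the stalk, 38 had one with a median of 0.17. In 13 of 74 members the lowest siUCA1 array lay above the highest sictrl array, and in 0 the reverse held. Over all genes these shares were 11% and 9.66%. The 13 were 6 members of the 40S and 7 of the 60S subunit.

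In the 60S subunit the largest differences after RPL22 were in RPL36 and RPL5, and in both 1 sictrl array decided the size. RPL36, a small 60S protein, lay at 8.95, 9.09, 9.25 and 8.25 on the sictrl arrays and at 9.31, 9.31, 9.46 and 9.46 on the siUCA1 arrays. Sictrl A3 was lowest by far, though the conditions did not overlap. The log2 fold change was 0.50 ± 0.20 (SE, limma adjusted p = 0.145), and it was 0.31 without sictrl A3 and siUCA1 A1.

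RPL5 lay at 9.39, 9.42, 9.43 and 8.56 on the sictrl arrays and at 9.65, 9.62, 9.71 and 9.71 on the siUCA1 arrays, again without overlap. Its log2 fold change was 0.47 ± 0.19 (SE, limma adjusted p = 0.156). This was the highest of its kept probes, and the others gave 0.26, 0.21 and 0.08. Without both arrays of large trend the brightest probe gave 0.26 and passed the test (limma adjusted p = 0.0421). RPL11, its partner in binding 5S ribosomal RNA and MDM2, lay at 9.65 ± 0.213 in sictrl and at 9.84 ± 0.046 in siUCA1 (SD, n = 4 each), and its difference of 0.19 (0.09 without sictrl A1) had an adjusted p of 0.348.

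Of the further 60S members, those named here gave wide intervals or small differences. RPL12, which lies at the base of the stalk, had a log2 fold change of 0.46 with a 95% interval from -0.33 to 1.25, since it lay at 8.52 on sictrl A3 and between 9.57 and 10.43 on the other arrays. It was 0.09 without sictrl A3 and 0.26 without sictrl A3 and siUCA1 A1. RPL41, the smallest ribosomal protein, gave 0.09 (-0.39 to 0.57). RPL34 varied little, at 8.69 ± 0.0778 in sictrl and 8.86 ± 0.0282 in siUCA1 (SD, n = 4 each), and its arrays did not overlap, yet its difference of 0.17 did not pass (limma adjusted p = 0.228). RPL17, a protein at the rim of the exit tunnel, had the lowest value of the 60S members, -0.07 (-0.40 to 0.27).

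The stalk, which RPLP0 anchors and pairs of RPLP1 and RPLP2 complete, recruits elongation factors to the ribosome. RPLP0 lay at 10.79, 10.81, 10.81 and 10.90 on the sictrl arrays and at 10.90, 10.87, 11.02 and 11.06 on the siUCA1 arrays. The highest sictrl array, A3, reached the lowest siUCA1 arrays. Its log2 fold change was 0.13 with a 95% interval of -0.06 to 0.33 (limma adjusted p = 0.364). RPLP1 and RPLP2 gave 0.22 (adjusted p = 0.486) and 0.15 (0.58), and in both sictrl A1 was the lowest array, at 9.34 and 9.80. Without sictrl A1 they gave 0.04 and 0.03. None of the 3 stalk genes separated the conditions.

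In the 40S subunit no member passed the test. RPS3A, with the smallest spread of all members, lay at 9.65, 9.72, 9.67 and 9.74 on the sictrl arrays and at 9.86, 9.90, 9.84 and 9.93 on the siUCA1 arrays. The conditions did not overlap, and the difference of 0.19 ± 0.080 (SE) had an adjusted p of 0.171 by limma. RPS19, the gene most often mutated in Diamond-Blackfan anemia, gave 0.26 ± 0.11 (SE, limma adjusted p = 0.168).

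RPS6, the classical substrate of the S6 kinases, lay at 10.03, 10.16, 10.15 and 9.62 on the sictrl arrays and at 9.23, 10.27, 10.34 and 10.31 on the siUCA1 arrays. Sictrl A3 and siUCA1 A1 were lowest in their conditions, and the log2 fold change was 0.05 with a 95% interval of -0.54 to 0.63. It was 0.19 without those arrays. RPS27A, made as a fusion with ubiquitin, lay at 8.21, 8.40, 8.30 and 7.99 on the sictrl arrays and at 6.57, 8.33, 8.79 and 7.81 on the siUCA1 arrays. Its log2 fold change of -0.35, the lowest of all members, had an interval of -1.28 to 0.58 and was 0.01 without both arrays. RPS18 gave -0.20 (limma adjusted p = 0.414) and -0.01 without both arrays, while its other kept probes gave 0.27 and 0.16 over all 8 arrays.

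RPS7 and RPS25 gave -0.01 each. In RPS7, which can also bind MDM2, siUCA1 M2 lay at 9.15 and the other 3 siUCA1 arrays between 9.74 and 9.82. In RPS25, needed for translation from some viral entry sites, siUCA1 A1 lay at 9.56 and the others between 10.41 and 10.52, and the value without both arrays of large trend was 0.24. RPS2, at the mRNA entry, gave 0.47 with an interval of -0.17 to 1.10, as sictrl A3 lay at 9.60 while A1, M2 and A2 of sictrl ran from 10.61 to 10.91. It was 0.16 without sictrl A3 and 0.20 without both arrays of large trend.

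**Figure D3:**
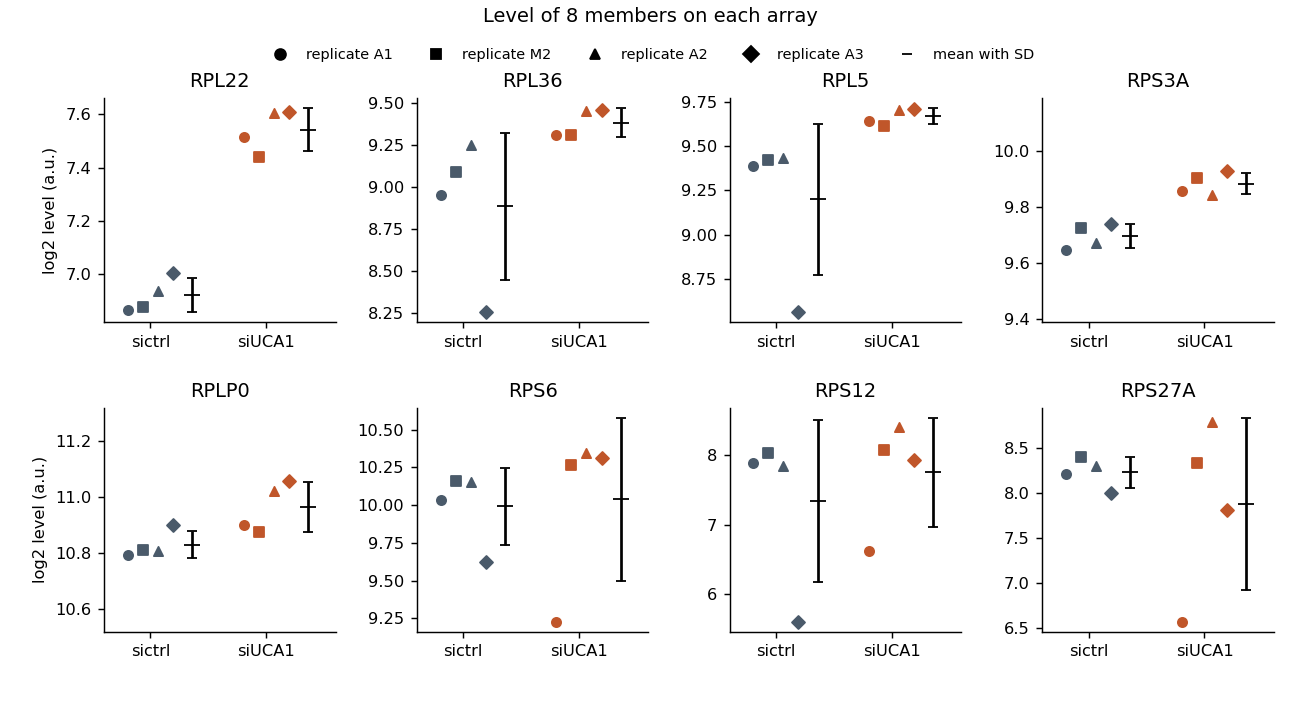
Level (log2 of the processed signal minus the array's 75th percentile, arbitrary units) of 8 members on each array of sictrl (gray) and siUCA1 (orange), with a marker for each replicate and the mean with SD beside them. RPL22 and RPS3A separated the conditions with little spread, RPL36 and RPL5 had 1 low sictrl array, and RPS6, RPS12 and RPS27A had a low siUCA1 A1 array; each panel has an axis of its own.

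The spread of the members between arrays was smaller without sictrl A3 and siUCA1 A1. The median SD over the 4 arrays of a condition was 0.162 in sictrl and 0.132 in siUCA1 for the members, and 0.192 and 0.196 for all genes tested. Without these 2 arrays the members' medians were 0.0962 and 0.0884. Sictrl A3 was the array farthest from the median of the other 3 arrays of its condition in 41 of 74 members and sictrl A1 in 29. In siUCA1, A1 was farthest in 35 and A2 in 22. The median size of a member's deviation from the mean of the other 3 arrays of its condition was 0.248 on sictrl A3, 0.192 on A1, 0.101 on M2 and 0.0997 on A2. On the siUCA1 arrays it was 0.156 on A1, 0.148 on A2, 0.0992 on A3 and 0.0902 on M2.

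Single members were far off on these arrays while others were not. Against the mean of the other 3 arrays of its condition, a member lay more than 0.5 lower on sictrl A3 in 9 cases and more than 0.5 higher in 4, and on siUCA1 A1 it lay lower in 11 and higher in 1. RPS12, RPL31, RPL12 and RPL23 were low on both. RPS12, a 40S protein near the beak, differed by -2.32 on sictrl A3 (at 5.61, against 7.84 to 8.03) and by -1.52 on siUCA1 A1 (at 6.62, against 7.93 to 8.41). Its log2 fold change of 0.41 had an interval of -0.91 to 1.74, the widest of all members. The value turned to -0.16 without sictrl A3, and was 0.79 without siUCA1 A1 and 0.21 without both.

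The low values went with the place of the spot. Of the 74 representing probes, 40 lay on the left side of the array (columns 1 to 82 of 164), and 15 of the 16 members more than 0.5 low on either array were among them. The exception was RPL36, with -0.84 on sictrl A3 in column 127. Near its spot, probes of RPL21 and RPL7 that do not represent their genes were also low on that array. They lay in columns 129 and 128 and differed by -1.91 and -1.48. The median size of the deviation was 0.358 on sictrl A3 and 0.314 on siUCA1 A1 on the left side, against 0.0953 and 0.0738 on the right. All genes tested showed the same contrast, with 0.400 and 0.375 on the left and 0.173 and 0.167 on the right. The median log2 fold change of the members was 0.16 on the left, with 33 of 40 above 0, and 0.17 on the right, with 33 of 34. RPL30, whose probe was printed 10 times on both sides, was counted on the right by 1 of its spots, in column 95.

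**Figure D4:**
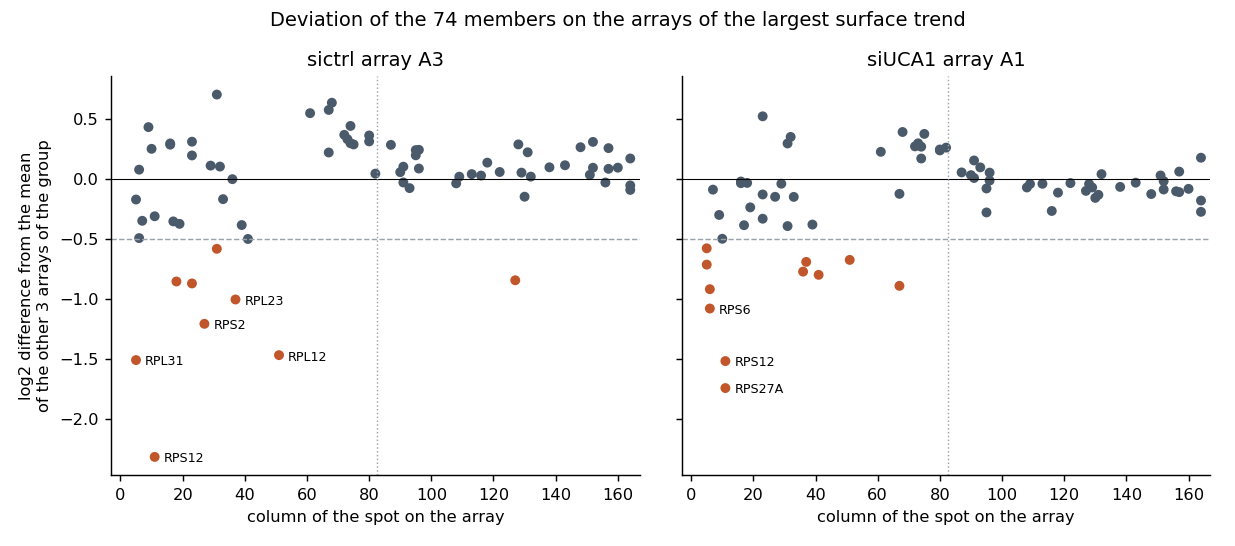
Difference of each of the 74 members on sictrl A3 (left) and siUCA1 A1 (right) from the mean of the other 3 arrays of its condition (log2), against the column of its spot on the array. RPL30, printed 10 times, is drawn at 1 of its spots. Orange points lie more than 0.5 low, the dotted line divides the left from the right side, and the orange points other than RPL36 at column 127 lie on the left.

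Repeated spots of 1 probe were also uneven on these arrays. The RPL30 probe was printed 10 times across each array. The SD of log2 signal between its spots was 0.217 on sictrl A3 and 0.536 on siUCA1 A1, and between 0.0161 and 0.0505 on the other 6 arrays. On siUCA1 A1 its spot in column 59 differed from the median of the spots by -1.49 and that in column 73 by 0.38. On sictrl A3 the spot in column 59 lay above the median of the spots, by 0.34, and the lowest spot, at -0.33, was on the right side, in column 95.

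Without these 2 arrays, 8 members were called higher in siUCA1 and 0 lower by limma, against 13.1% of all 15993 genes then tested called higher. RPL22, RPL3, RPL5, RPS3, RPS9, RPS19 and RPS24 were among them, and the log2 fold changes ran from 0.26 (RPL5) to 0.66 (RPL22). The 8 of 74 were near that share, and the difference was not tested. The median over the members was 0.20 and 71 of 74 were above 0.

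Probes of 1 member differed in fold change about as much as those of genes in general, and by as much as the members' fold changes themselves. Of the tested members, 33 had 1 kept probe and 41 had several, 114 probes in all. The range of the log2 fold change between the probes of a gene had a median of 0.191 over the 41 members, and of 0.186 over the 2965 genes with several kept probes. Probes had opposite signs in 11 of 41 members (26.8%) and in 30.1% of all such genes. Among the 25 members with 2 kept probes the median range was 0.122 with 3 of opposite sign (12%), against 0.165 and 27.2% of all genes with 2. Levels differed far more than fold changes: the kept probes of 1 member differed by a median of 1.89 in log2 level, and by up to 11.6.

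Tested one by one, 6 of 147 probes were called higher and 1 lower, against 5.4% of all 19050 kept probes called higher and 11.2% called in either direction. RPL22 was called by both of its probes. RPL13, RPL15, RPS23 and RPS29 were each called higher by the dimmest kept probe of the gene, at 7.86, 4.01, 1.07 and 2.29 in sictrl, while their brighter probes were not. The called RPS23 probe, for example, lay at 1.07 ± 0.0532 in sictrl and at 1.63 ± 0.0974 in siUCA1 (SD, n = 4 each), a difference of 0.57 (limma adjusted p = 0.00734). The bright probe of RPS23 lay at 9.22 and 9.24 and differed by 0.02 (adjusted p = 0.931).

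RPL37 gave opposite results. Its bright probe had a log2 fold change of 0.40 ± 0.20 (SE, limma adjusted p = 0.243), which was 0.18 without sictrl A3 and 0.21 without both arrays of large trend. Its dim probe, at -0.01 ± 0.166 in sictrl and -0.60 ± 0.151 in siUCA1 (SD, n = 4 each), gave -0.59 and was called lower (adjusted p = 0.0175). RPL28 had the widest range of all, from -0.54 to 0.50 over 3 probes designed on different transcript variants, of which the brightest gave 0.39 (0.22 without sictrl A1) and none passed. RPL21 had 9 probes from -0.35 to 0.56 and RPS3A had 6 from -0.19 to 0.40. Ribosomal protein genes have many near-identical processed copies in the genome, and which copies a probe also binds was not tested.

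**Figure D5:**
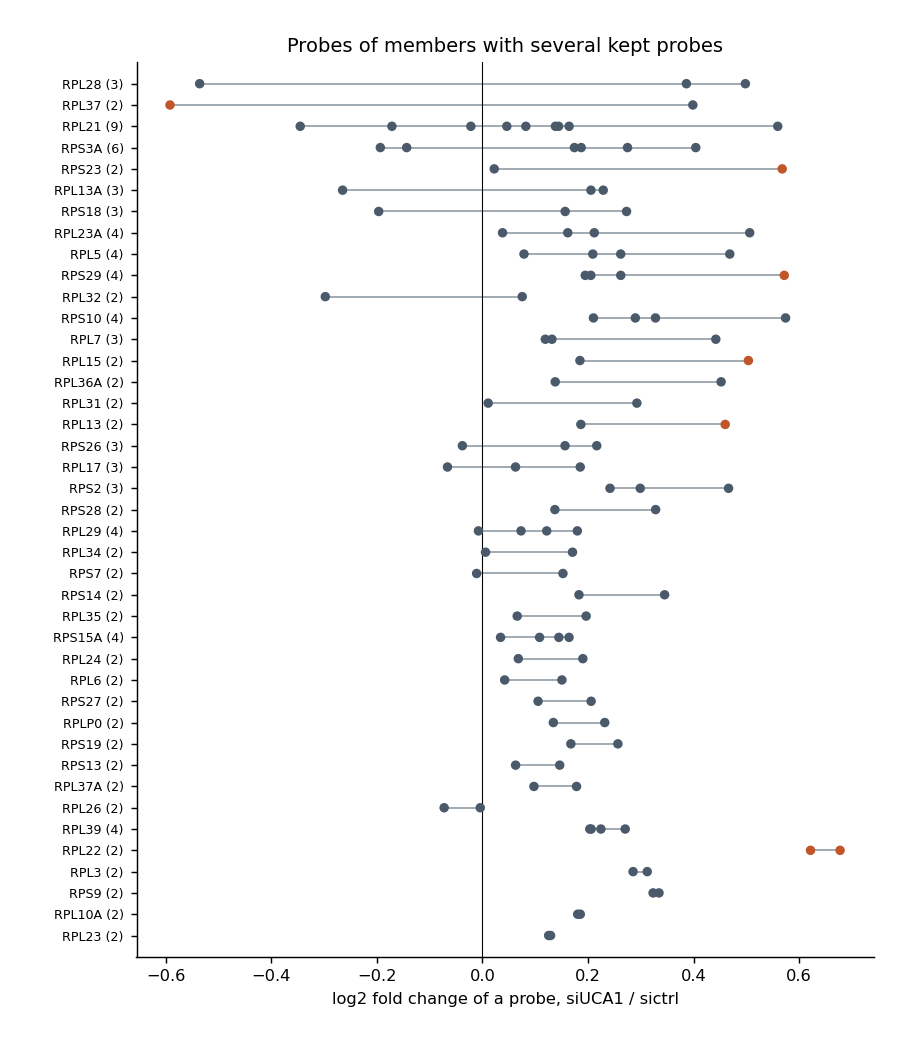
Log2 fold change (siUCA1 over sictrl) of each kept probe of the 41 members with several, the number of probes in parentheses, sorted by the range within a gene. Orange points passed the adjusted threshold over all kept probes: both RPL22 probes, 1 probe each of RPL13, RPL15, RPS23 and RPS29 above 0, and 1 RPL37 probe below 0.

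Genes that belong to the same machinery were read from lists written for this comparison, with the background share of 11.4% called as above. FAU, which encodes a ribosomal protein fused to a ubiquitin-like protein, gave 0.12 (limma adjusted p = 0.709). None of 8 paralogs of ribosomal protein genes was called, with values from -0.34 to 0.25. None of 17 other translation genes known for a pyrimidine start was called either, with a median of 0.23 (0.15 with quantile normalization). In 8 of them the conditions did not overlap and siUCA1 was higher, against 11% of all genes, among them EEF1A1 (0.22, adjusted p = 0.173), EEF2 (0.28, 0.0861) and EEF1G (0.31, 0.0544), which carry out elongation. EIF3A, of the same list, gave -0.44 (adjusted p = 0.0911), the lowest value of the 17.

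Among ribosome assembly genes the share called, 3 of 30, was near that of all genes. Of the 30, 9 had a log2 fold change above 0, with a median of -0.10 (-0.17 with quantile normalization and -0.20 with median scaling), and 2 were called lower and 1 higher. BOP1, part of the PeBoW complex that matures 60S ribosomal RNA, fell from 5.76 ± 0.113 to 4.93 ± 0.188 (SD over 4 arrays), by 0.83 on the log2 scale (limma, adjusted p = 0.00495). RRP12, which helps to export both subunits, fell from 3.27 ± 0.130 to 2.68 ± 0.225, with a log2 fold change of -0.59 (adjusted p = 0.0243). WDR12, of the same complex as BOP1, rose by 0.33 (adjusted p = 0.037), and PES1, its other member, gave -0.21 (0.313). BOP1 lost its call only without the filter on dim probes (adjusted p = 0.111) among 22 alternatives, while RRP12 lost it in 10 of 22 and WDR12 in 12, with adjusted p up to 0.309 and 0.688.

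RNA polymerase I makes the ribosomal RNA precursor. Of its 15 genes and factors, 3 lay above 0, with a median of -0.14 (-0.15 and -0.24 with those scalings), and POLR1G fell from 3.62 ± 0.145 to 2.93 ± 0.362 (SD, n = 4 each; log2 fold change -0.69, limma adjusted p = 0.0405). Of 7 chaperones of single ribosomal proteins, GRWD1, which attends RPL3, fell, with a log2 fold change of -0.52 (adjusted p = 0.0295), and 6 were not called. POLR1G lost its call in 12 of 22 alternatives and GRWD1 in 10 of 22, with adjusted p up to 0.332 and 0.364.

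Of 11 genes that control ribosomal protein synthesis none passed, and 5 lay above 0, with a median of -0.03. MYC, which drives many ribosome genes, gave -0.30 (limma adjusted p = 0.0791) and EIF4EBP1, an mTOR target that holds back translation, -0.47 (0.0857). In both the conditions did not overlap, with siUCA1 lower, as in 9.66% of all genes. The largest rises were in RPTOR (0.34, limma adjusted p = 0.331) and MAX (0.33, 0.184), with overlap. LARP1 gave 0.15 (0.433) and MTOR -0.10 (0.698). The proteins of the mitochondrial ribosome are encoded by other genes: of 75 tested, MRPS21, MRPS22 and MRPL48 rose by 0.52, 0.46 and 0.42 on the log2 scale and MRPL37 fell by 0.45, with adjusted p from 0.0324 to 0.0492, and the median was 0.02, or -0.01 with quantile normalization. Each of these 4 lost its call in 10 to 14 of 22 alternatives, with adjusted p up to 0.521.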

How the data were processed

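The RNA of 4 sictrl and 4 siUCA1 cultures was hybridised to 8 Agilent 8x60k arrays with 1 color each, grouped by the sample titles. The authors deposited the output of Agilent Feature Extraction 10.7.3.1 (version per the submitters' processing notes), which gives a linear intensity per spot with background subtracted and a surface trend removed, not normalized between arrays. The deposited table of the whole series held the same intensities (largest relative difference 0). The study's methods name limma with Benjamini-Hochberg correction.

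From the deposited intensity, log2 values were taken and each array's 75th percentile over non-control spots was subtracted. Control and outlier spots were left out and spots of 1 probe averaged. Of 58201 probes, 31104 were named through RefSeq accessions. Limma 3.58.1 (R 4.3.3) was fitted over all 15459 genes without a replicate block. Figures used matplotlib 3.10.9 and Python 3.11.15. All arrays shared 1 slide and 1 scan date, no spot was saturated, and 20858 to 24039 non-control spots per array were well above background. The number of arrays limits the precision.

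The procedure was tested on simulated data. Alternatives covered scaling, filters, probe choice, background, variance model, surface trend, blocks and arrays left out. A planned normexp on the mean signal used the median signal, which the files hold. Members, lists and named genes (called members, the 5 largest differences each way, known roles, the widest ranges between probes, the largest and smallest spreads) were chosen with earlier results of these data known. RPL3, RPS3, RPS9, RPS24, RPL13, RPL15, RPS29, RPL23, RPL30 and RPS4X lie outside this rule and were named after their values were seen. The results of some genes of the set and lists are counted but not reported by name here.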

Additional observations from a re-analysis of the deposited data

Results flagged for a closer look

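In 56 sets of 4 arrays, 52 of the 26 named members and 4 of the members' median level and share of signal, 1 array was sought that lay far from the other 3. This held in 8 sets. Its gap to the nearest array was divided by the range of the 4, and a set was singled out above Dixon's critical value at 95% for 4 samples. Chance singles out about 1 in 20 sets, and the same rule picked 22 of the 148 sets of all members (14.9%) and 10.4% of the sets of all genes tested.

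In sictrl, A3 was the far array of RPL5 (ratio 0.947) and RPS12 (0.923), where it lay low. A1 was the far array of RPS25 (0.972), at 10.08 beside 10.32 on each of the other sictrl arrays.

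In siUCA1, A1 lay low in RPS25 (0.890), RPS6 (0.932) and RPL41 (0.960). A2 was the far array of RPS2 (0.934), at 11.28 beside 10.86 to 10.88, and M2 that of RPS7 (0.874), at 9.15 beside 9.74 to 9.82.

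Sictrl A3 and siUCA1 A1 thus held 5 of the 8, and these are the arrays of the largest surface trend. The part of that trend in these values was not tested.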

How the results depend on the processing

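RPL22 kept its sign in each of 22 alternatives (log2 fold change 0.41 to 0.66) and its call in 18. Leaving out each array in turn gave 1 to 3 ribosomal protein genes higher (3 without sictrl A3 and 3 without siUCA1 A1), 0 lower each time, a median log2 fold change of 0.12 to 0.20, and 739 to 2272 genes called in all, against 1766. With the replicate block 1683 genes were called, RPL22 among them (limma adjusted p = 0.0176). Samples of 1 replicate name deviated together only in part (correlations of 0.04 for A1, 0.28 for M2, 0.22 for A2 and 0.13 for A3 over 15449 genes). The main fit did not take the names as pairs. The study describes 4 independent experiments and the titles share the names, so the arrays may be paired, which these correlations cannot settle. The members' share of the signal was higher in siUCA1 for 4 of 4 names.

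The number of members called higher became 0 with median scaling, without the filter on dim probes, with normexp and with the surface trend removed, and all genes called became 523, 78, 386 and 671. It became 5, with 1 lower, when every probe was tested, 10 with array weights (4654 genes called in all, 15.9% of all genes as higher) and 8 without both arrays of the largest surface trend (3906 in all). With median scaling 108 of 523 calls were higher (20.7%), against 49.2% of the 1766. The median log2 fold change of the members moved to 0.0256 with quantile normalization.

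Among 572 checks of the 26 named members, 530 kept direction and side of the threshold, 4 lost the call (RPL22) and 3 gained one: RPL5 (0.26) and RPS19 (0.35) without both arrays of the largest surface trend, and RPS19 with array weights (0.32). In 35 checks a member that was not called turned sign. With quantile normalization these were RPLP2 (-0.00894), RPS6 (-0.121), RPL41 (-0.0495), RPL21 (-0.00261) and RPS23 (-0.124), and with median scaling RPS6 (-0.0486), RPL41 (-0.00437) and RPS23 (-0.0725). With the mean of kept probes they were RPS7 (0.0708), RPL17 (0.0606), RPS18 (0.0778) and RPL37 (-0.0966). With array weights they were RPS25 (0.145) and RPS27A (0.0159), and without both arrays of the largest trend RPS25 (0.241) and RPS27A (0.00710). Leaving out each array in turn gave RPS25 -0.0978 to 0.221, RPS7 -0.0766 to 0.147, RPL17 -0.159 to 0.0113, RPS27A -0.656 to 0.0846, RPS6 -0.0767 to 0.316, RPL41 -0.0343 to 0.290, RPS23 -0.0436 to 0.0942, RPS12 -0.165 to 0.794 and RPL31 -0.0847 to 0.471, ranges that all cross 0. The cause was not tested. Testing every probe gives no single value per gene, and was left out of these checks. Dim probes are limited by the background and all tests by 4 arrays per condition.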
